A study of Sus scrofa with 14 samples.

Results

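The oxytocin receptor gene OXTR and the prostaglandin enzyme genes PTGS2 and AKR1CL1 were followed in the uterine lining (endometrium) of 14 gilts, which are young female pigs. Every probe set that the array's annotation gives 1 gene symbol, and whose symbol is one of these, was included. That gave 5 probe sets of the 23935 on the array that are not controls, and 3 genes of 6765 named ones: 1 probe set for OXTR, 1 for PTGS2 and 3 for AKR1CL1. RNA from each gilt was hybridised to 1 Affymetrix porcine array.

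All gilts were crossbred, cyclic and 8 to 10 months old. The estrogen groups received estrogen and the control groups corn oil when their second estrus began, with a repeat dose 24 hours later. Endometrium was collected on day 13 or day 15 of what the submitters call pseudopregnancy, after the uterus had been flushed with 20 mL of saline. Day 13 had 4 gilts given corn oil and 4 given estrogen, and day 15 had 3 of each. The labels call them biological replicates. Per the submitters, pig embryos attach over these days, and the estrogen treatment served as an endocrine disruption. The labels describe no gilt as pregnant.

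In the pig, oxytocin binds its receptor on endometrial cells and, through phospholipase C, calcium and protein kinase C, stimulates the release of prostaglandin F, which brings about regression of the corpora lutea. Cyclooxygenase 2, the product of PTGS2, converts arachidonic acid to prostaglandin H, from which separate synthases make prostaglandins F and E. AKR1CL1 is an aldo-keto reductase that has been described as a prostaglandin F synthase of the pig, and prostaglandin E is regarded as luteoprotective. Estrogen is the signal with which pig embryos maintain the corpora lutea.

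Levels are given as log2(signal + 16), so that 1 unit is a doubling of bright signals and somewhat more than a doubling of dim ones. Levels of different probe sets were not compared, because each binds with its own strength. All 8 epithelial markers were bright in every group, with EPCAM, the epithelial adhesion molecule, at 13.38 to 14.08 over the 14 arrays. Of the trophoblast markers, 2 of 4 had probe sets, and both lay under the dim level of 6.35 on average in every group. Of the 14 arrays, 3 stood apart from the others. These were replicate 1 of control day 13, with a median correlation with the other arrays of 0.860, replicate 3 of control day 15, with 0.873, and replicate 2 of estrogen day 15, with 0.885, where the other 11 arrays had 0.927 to 0.952. Differences of the tested member probe sets that involve them are given with and without them. Those of pathway genes are given so wherever the value moved by over 1.5 times or changed its sign. In whole tissue, a smaller number of cells of one type cannot be told apart from less RNA in each cell.

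OXTR had the lowest level in control gilts at day 13 and the highest in control gilts at day 15, with both estrogen groups between them. Its probe set gave 6.32, 5.83, 5.82 and 6.53 on the control arrays of day 13, in the order of the replicates. On the control arrays of day 15 it gave 7.05, 6.79 and 8.01. In the control gilts the days did not overlap, and the value of 8.01, on control day 15 replicate 3, was the highest of the 14.

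In estrogen gilts OXTR had levels of 6.63, 6.89, 6.20 and 7.16 at day 13. At day 15 the levels were 6.83, 6.41 and 6.75. The days overlapped fully in these gilts. The gene was dim throughout, with signals of 40.3 to 243 and 4 of 14 arrays under the dim level, 3 of which were control arrays of day 13.

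The mean OXTR level was 6.12 ± 0.36 (SD, n = 4) in control gilts on day 13 and 7.29 ± 0.64 (SD, n = 3) on day 15. The difference was 1.16 ± 0.32 (SE) on the log2 scale, or 2.24-fold, with a 95% interval of 0.47 to 1.86. It stood at place 28 of 16754 tested probe sets by its unadjusted limma p of 0.0030, but it did not pass after Benjamini-Hochberg adjustment over all of them (limma adjusted p = 0.966). In the exact 2-sided permutation test of the 7 control arrays, p was 0.0286, which is the smallest that 4 against 3 arrays can give. Non-overlap upwards was seen for 1.74% of the tested probe sets in this comparison. Without control day 15 replicate 3 the OXTR difference was 0.80, and without the 3 arrays that stand apart it was 0.86.

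In estrogen gilts the mean OXTR level was 6.72 ± 0.41 (SD, n = 4) on day 13 and 6.66 ± 0.22 (SD, n = 3) on day 15. The difference between the days was -0.06 ± 0.32 (SE), with a 95% interval of -0.75 to 0.64, and the exact 2-sided permutation p was 0.886. Without the 3 arrays that stand apart the difference was 0.07.

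The estrogen comparison asked whether early estrogen altered the receptor on either day. At day 13 OXTR was 0.60 ± 0.30 (SE) higher in estrogen gilts, or 1.51-fold (95% interval -0.05 to 1.24, limma adjusted p = 1.000, exact 2-sided permutation p = 0.114). These tests do not use the replicate numbers, which paired the arrays of day 13 by their values: the estrogen array was the higher in 4 of 4 OXTR pairs. No label states these pairs, and the share of all probe sets with 4 of 4 is not given here, so such counts are descriptions. A block of the replicate number, shared by the arrays of both days, does not test these pairs alone. With it the OXTR difference was 0.60 ± 0.29 (SE) and did not pass (limma adjusted p = 1.000). Leaving the 3 arrays out gave 0.66. At day 15 the estrogen minus control difference was -0.62 ± 0.35 (SE), with an interval of -1.37 to 0.12 and an exact permutation p of 0.200, where 3 against 3 arrays cannot give less than 0.1. Without the 3 arrays that stand apart the difference at day 15 was -0.13.

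Since the estrogen difference in OXTR had opposite signs on the 2 days, its average over both was -0.01 ± 0.23 (SE), and 0.26 with the 3 arrays left out. The change in the estrogen difference from day 13 to day 15 was -1.22 ± 0.46 (SE), with a 95% interval of -2.20 to -0.24 and an unadjusted limma p of 0.0188. It did not pass the threshold over all probe sets (limma adjusted p = 0.990). Without control day 15 replicate 3 it was -0.85, and without the 3 arrays that stand apart it was -0.79. At its smallest size over all alternative settings it was -0.21. In the order of the group means, from control day 13 through estrogen day 15 and estrogen day 13 to control day 15, each pair of neighbouring groups overlapped.

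**Figure D1:**
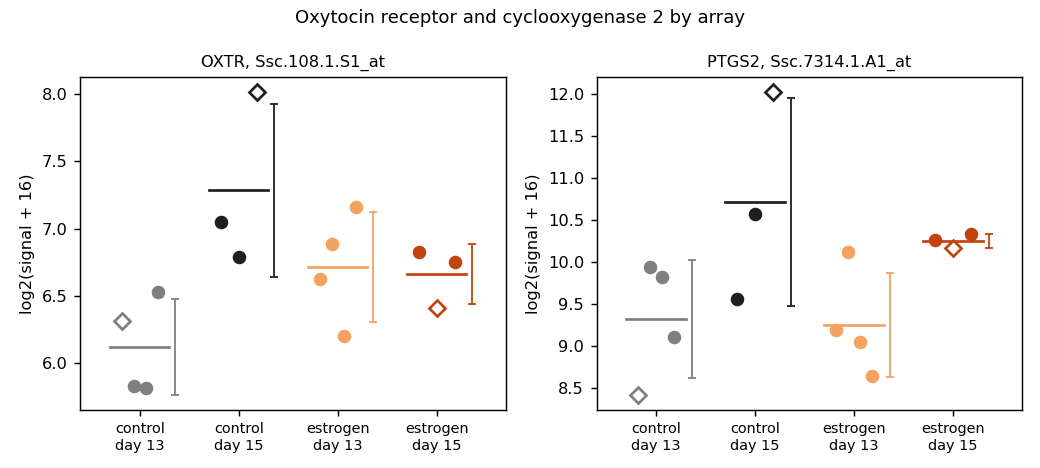
Log2(signal + 16) of OXTR (left) and PTGS2 (right) on each of the 14 arrays, by treatment and day; circles are arrays, open diamonds the 3 arrays that stand apart, horizontal lines group means and vertical bars 1 SD. OXTR lies at 5.82 to 6.53 in control gilts at day 13 and at 6.79 to 8.01 at day 15, and PTGS2 in estrogen gilts lies at 8.65 to 10.12 at day 13 and 10.17 to 10.33 at day 15.

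PTGS2, which makes the common precursor of the prostaglandins, was higher on average at day 15 than at day 13 under both treatments. With all arrays, its mean difference between treatments at day 13 was smaller than its SE. Its probe set was brighter than 82.1% of all probe sets. On the control arrays of day 13 it gave 8.42, 9.93, 9.82 and 9.11, and on those of day 15 it gave 9.56, 10.57 and 12.02. The control groups overlapped, because control day 15 replicate 1, at 9.56, lay under both replicate 2 and replicate 3 of day 13.

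In estrogen gilts PTGS2 had levels of 9.20, 10.12, 9.05 and 8.65 at day 13. At day 15 it had 10.27, 10.17 and 10.33, the narrowest spread of PTGS2 in any group. The days did not overlap, although replicate 2 of day 13, at 10.12, came within a small margin of the lowest array of day 15.

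The mean PTGS2 level in control gilts was 9.32 ± 0.70 (SD, n = 4) on day 13 and 10.72 ± 1.24 (SD, n = 3) on day 15. The difference was 1.40 ± 0.51 (SE), or 2.63-fold, with a 95% interval of 0.31 to 2.48 (unadjusted limma p = 0.0155, adjusted p = 0.966, exact 2-sided permutation p = 0.143). This value rested heavily on single arrays. It was 0.75 without control day 15 replicate 3, 1.97 without control day 15 replicate 1 and 0.45 without the 3 arrays that stand apart.

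In estrogen gilts mean PTGS2 went from 9.25 ± 0.62 (SD, n = 4) to 10.25 ± 0.08 (SD, n = 3). The difference was 1.00 ± 0.51 (SE), or 2.00-fold, with a 95% interval of -0.08 to 2.09 (unadjusted limma p = 0.0679, adjusted p = 0.601, exact 2-sided permutation p = 0.0571). In this comparison 7.96% of tested probe sets had day 15 arrays all above the day 13 arrays. Leaving those 3 arrays out gave a PTGS2 difference of 1.05. RNA integrity differed among these arrays. The mean of 3 standardised 3′ minus 5′ differences, of GAPDH, actin and EF1A, which is higher where RNA is less intact, was 1.88 and 1.44 on estrogen day 15 replicates 1 and 3, and -1.32 to 0.49 on the other 12 arrays. With it as a covariate the PTGS2 day difference in estrogen gilts was 1.43 ± 0.57 (SE), and 2.13 ± 0.81 (SE) when the 3 arrays were also left out. In that last fit estrogen day 15 held only replicates 1 and 3, whose measures lay above all others. This group and RNA integrity can then hardly be told apart.

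Averaged over the treatments, PTGS2 was 1.20 ± 0.36 (SE) higher at day 15, or 2.30-fold, with a 95% interval of 0.43 to 1.97. It held place 227 of 16754 by its unadjusted limma p of 0.0048 and did not pass after adjustment (limma adjusted p = 0.350). The exact 2-sided permutation test that exchanged days within each treatment gave p = 0.0098. Without the 3 arrays that stand apart the average difference was 0.75, and with each array left out in turn it lay between 0.87 and 1.49.

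Early estrogen made a PTGS2 difference of -0.07 ± 0.47 (SE) at day 13, with a 95% interval of -1.08 to 0.94, and -0.37 with the 3 arrays left out. The estrogen array was the higher in 2 of 4 pairs. At day 15 the difference was -0.46 ± 0.54 (SE), with an interval of -1.63 to 0.70, and it turned to 0.23 without the 3 arrays that stand apart. Both intervals reach below -1 on the log2 scale, so they do not show that PTGS2 was alike in the treatments. The change in the estrogen difference between the days was -0.39 ± 0.72 (SE), and 0.60 without these 3 arrays. By group mean the order of PTGS2 was estrogen day 13, control day 13, estrogen day 15 and control day 15. Of neighbouring groups only control day 13 and estrogen day 15 did not overlap. These groups differ in both treatment and day, and the share of all probe sets so separated is not given here.

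**Figure D2:**
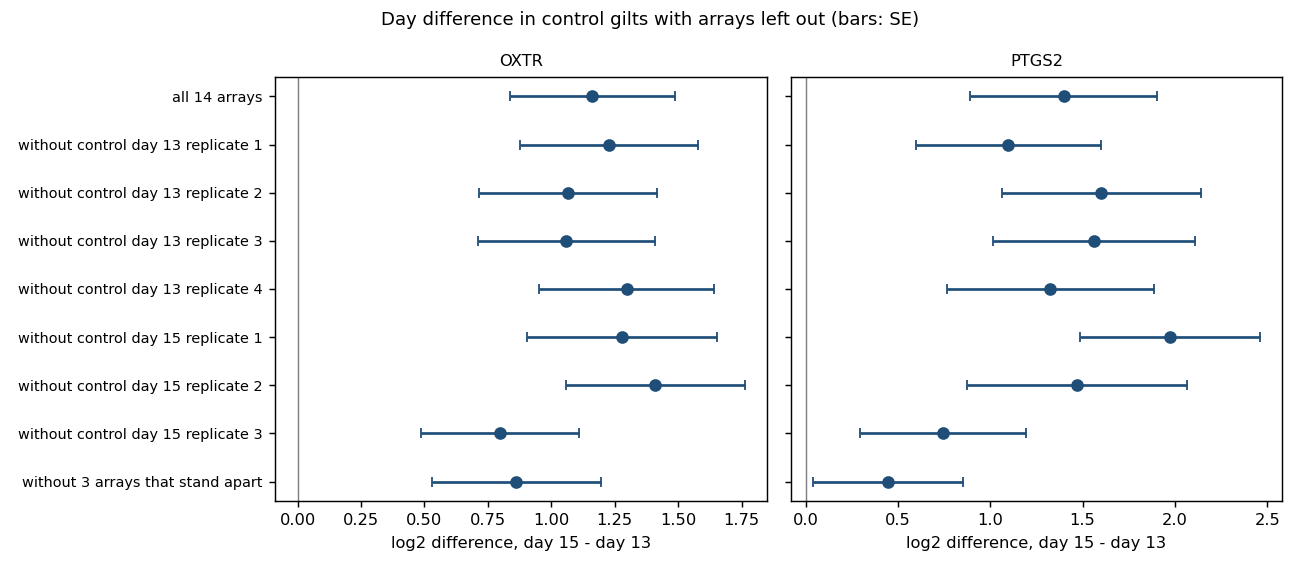
Day 15 minus day 13 difference in control gilts for OXTR (left) and PTGS2 (right) on the log2 scale, with all 14 arrays, without each control array in turn and without the 3 arrays that stand apart; points are fitted differences and bars 1 SE. Without control day 15 replicate 3 the OXTR difference goes from 1.16 to 0.80 and the PTGS2 difference from 1.40 to 0.75.

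Control day 15 replicate 3, where OXTR and PTGS2 were both highest, also differed in other readouts. Its epithelial, stromal fibroblast and smooth muscle markers each had the highest summed signal of all arrays. Signals were summed before the log2 was taken, so bright markers weigh most in these sums. On the log2 scale the epithelial sum was 15.54 and the stromal fibroblast sum 15.29, where the next highest arrays had 15.50 and 15.16. The smooth muscle sum was 13.81, where the other 2 control arrays of day 15 had 12.67 and 13.26. This sum covered the 7 of 8 smooth muscle markers with a probe set. It was 12.49 to 13.34 in control gilts at day 13. In estrogen gilts it was 12.98 to 13.41 at day 13 and 12.79 to 13.58 at day 15. The 3′ minus 5′ log2 difference of the GAPDH control probe sets, a measure of RNA integrity, was lowest on this array at 1.09 and was 1.36 to 2.84 on the others. The part of these measures in the OXTR and PTGS2 results was not tested beyond leaving the array out and adding RNA integrity to the fit.

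With RNA integrity as a covariate the day difference in control gilts was 1.11 ± 0.34 (SE) for OXTR and 1.21 ± 0.50 (SE) for PTGS2. Of the macrophage and neutrophil markers, 8 of 10 had a probe set and 2 of those were dim on average. At day 15, 7 of 8 had a higher mean than at day 13 in control gilts and 7 of 8 in estrogen gilts, the exceptions being S100A9 in control and CD14 in estrogen gilts. The log2 of the summed signal of these markers was 9.94 to 11.18 in control gilts at day 13 and 10.71 to 11.60 at day 15. In estrogen gilts it was 9.65 to 11.26 at day 13 and 11.18 to 11.74 at day 15, so the days overlapped in this sum under both treatments. Taken singly, CD163 and MRC1 were higher at day 15 without overlap under both treatments, and AIF1 and TYROBP in estrogen gilts only. The other markers, CD14, S100A8, S100A9 and S100A12, overlapped under both. Non-overlap upwards was seen for 1.74% of all tested probe sets in control gilts and 7.96% in estrogen gilts. The part of these cells in the PTGS2 values was not tested.

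OXTR and PTGS2 had a Pearson correlation of 0.50 over the 14 arrays, given as a description. It was -0.05 over the 11 arrays left without those that stand apart, and 0.22 after each group's mean had been taken off. PTGS2 and the AKR1CL1 probe set described next correlated at -0.67 over the 14 arrays, at -0.40 over the 11 and at -0.75 after the group means had been taken off.

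The 3 probe sets of AKR1CL1 are given separately. One, the probe set just named and called the steady probe set here, was nearly level across the groups. Another, called the variable probe set, had its highest mean in estrogen gilts at day 13. The last, called the dim probe set, was too dim to test. In the RefSeq annotation of Sscrofa11.1, AKR1CL1 lies between UCN3 and AKR1C1, in a run of aldo-keto reductase genes that also holds another AKR1C1 entry and AKR1E2. These relatives are similar in sequence, and whether the AKR1CL1 probe sets bind their transcripts was not tested.

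The variable AKR1CL1 probe set gave 4.45, 8.72, 7.18 and 7.59 on the control arrays of day 13. In estrogen gilts of day 13 the same probe set gave 8.80, 9.41, 9.12 and 8.13. The estrogen arrays were higher with the exception of replicate 4, which lay under control replicate 2, and the estrogen array was the higher in 4 of 4 pairs. At day 15 the control arrays gave 8.29, 8.73 and 6.06, and the estrogen arrays 8.29, 6.92 and 8.51, so those groups overlapped.

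The mean of this AKR1CL1 probe set at day 13 was 6.99 ± 1.81 (SD, n = 4) in control gilts and 8.87 ± 0.55 (SD, n = 4) in estrogen gilts. The difference was 1.88 ± 0.78 (SE), or 3.68-fold, with a 95% interval of 0.21 to 3.56 (unadjusted limma p = 0.0303, adjusted p = 1.000, exact 2-sided permutation p = 0.0571). Without control day 13 replicate 1, whose signal of 5.88 was far under the other 13 arrays, the difference was 1.04. With the replicate number as a block shared by both days it was 1.88 ± 0.83 (SE) and did not pass (limma adjusted p = 1.000). The lowest value of this probe set in 3 of 4 groups was on an array that stands apart, where it was 4.45, 6.06 and 6.92, against 7.18 to 9.41 on the other 11.

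From day 13 to day 15 the probe set differed by 0.71 ± 0.84 (SE) in control gilts and by -0.96 ± 0.84 (SE) in estrogen gilts. The control value was -0.14 without control day 13 replicate 1, 1.52 without control day 15 replicate 3, 0.41 and 0.19 without control day 15 replicates 1 and 2, 1.28 without control day 13 replicate 2, and 0.68 with the 3 arrays left out. The value in estrogen gilts was -0.47 without estrogen day 15 replicate 2, which is also the value with the 3 arrays left out. The estrogen difference at day 15 was 0.21 ± 0.90 (SE), and -0.11 with the 3 arrays left out. Day 15 minus day 13, the estrogen difference was -1.67 ± 1.19 (SE), -0.82 without control day 13 replicate 1 and -1.15 with the 3 arrays left out. None of these passed the threshold, and the 95% interval of the change in the estrogen difference, from -4.22 to 0.89, was the widest of all member results.

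The steady AKR1CL1 probe set gave 8.31, 7.34, 8.34 and 8.32 in control gilts at day 13 and 8.16, 7.94 and 7.21 at day 15. In estrogen gilts it gave 7.90, 7.79, 7.86 and 8.47 at day 13 and 7.96, 8.15 and 8.08 at day 15. Its range over all arrays was 1.26, the smallest among the 5 probe sets, and all groups overlapped.

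The day difference of the steady probe set was -0.30 ± 0.29 (SE) in control gilts and 0.06 ± 0.29 (SE) in estrogen gilts. The estrogen difference was -0.07 ± 0.27 (SE) at day 13, with a 95% interval of -0.64 to 0.50, and 0.29 ± 0.31 (SE) at day 15, with an interval of -0.37 to 0.95. With the 3 arrays left out the day differences were 0.054 and 0.015 and the estrogen differences 0.0072 and -0.032. The estrogen array was the higher in 2 of 4 pairs of day 13. The difference between the steady and variable probe sets was not tested. Over 14 arrays these probe sets correlated at -0.17, and over the 11 that do not stand apart at -0.69.

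The dim AKR1CL1 probe set lay between 4.21 and 6.63, with 12 of 14 arrays under the dim level. Only control day 15 replicate 1 and estrogen day 15 replicate 3 were above it. With no filter on dim probe sets its differences ran from -0.38 to 0.33 over the 7 comparisons, each smaller than its SE, and the estrogen array was the higher in 4 of 4 pairs of day 13.

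**Figure D3:**
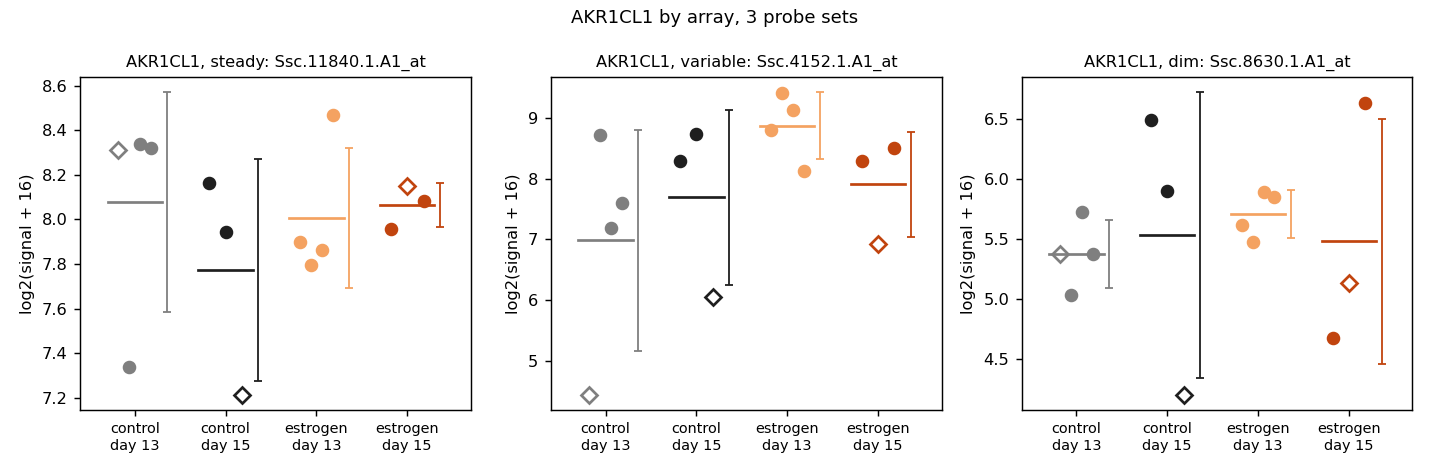
Log2(signal + 16) of the steady (left), variable (middle) and dim (right) AKR1CL1 probe sets on each of the 14 arrays, by treatment and day, each on its own scale; circles are arrays, open diamonds the 3 arrays that stand apart, horizontal lines group means and vertical bars 1 SD. The variable probe set spans 4.45 to 9.41, with its lowest values on open diamonds, while the steady one stays between 7.21 and 8.47.

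Of the 4 member probe sets that were tested, 0 passed an adjusted p of 0.05 in any of the 7 comparisons. Over all tested probe sets 0% passed in each comparison but the day averaged over treatments, where 1 probe set, 0.00597%, passed. At an unadjusted limma p under 0.05 there were 2 of 4 member probe sets for the day in control gilts, where the background was 3.92%, and 2 of 4 for the day averaged over treatments, where it was 8.56%. There was 1 of 4 for estrogen at day 13 and for the change in the estrogen difference, with backgrounds of 2.89% and 3.55%. There were 0 of 4 for estrogen at day 15, estrogen averaged over days and the day in estrogen gilts, with backgrounds of 3.83%, 3.22% and 8.61%. Of the 30 exact permutation tests of the 5 probe sets, 2 gave p under 0.05: the day in control gilts for OXTR and the day averaged over treatments for PTGS2. The tests of estrogen at day 15, with 3 against 3 arrays, could not give less than 0.1. These p-values were not adjusted for the number of tests.

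**Figure D4:**
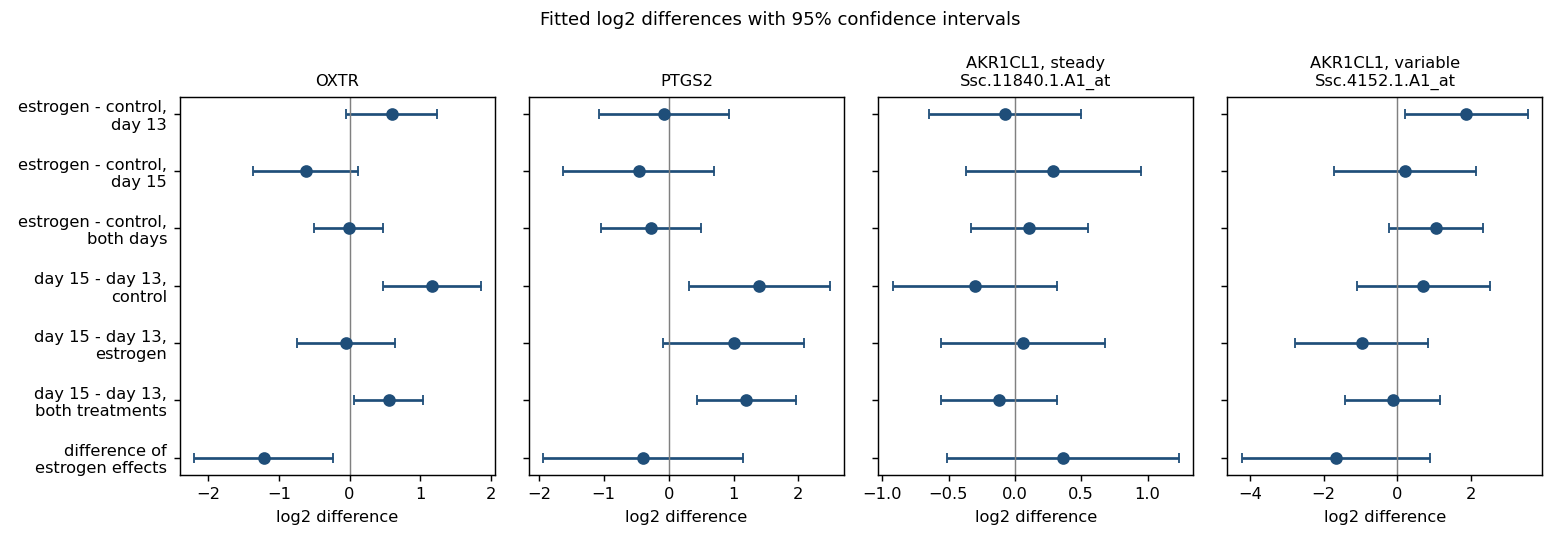
Fitted log2 differences of OXTR, PTGS2 and the steady and variable AKR1CL1 probe sets, from left to right, in the 7 comparisons; points are differences, bars 95% confidence intervals, and each panel has its own scale. The intervals of OXTR (0.47 to 1.86) and PTGS2 (0.31 to 2.48) for the day in control gilts lie above 0. So do those of OXTR (0.06 to 1.04) and PTGS2 (0.43 to 1.97) for the day averaged over treatments. The interval of the variable AKR1CL1 probe set for estrogen at day 13 (0.21 to 3.56) also lies above 0. That of OXTR for the change in the estrogen difference (-2.20 to -0.24) lies below 0. The intervals are not adjusted for the number of comparisons.

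The pathway around these genes was described with 5 lists of 68 genes in all, of which 35 had a probe set of their own and 24 were bright enough to test. In each of the 7 comparisons 0 of these 24 passed the adjusted threshold in either direction. From day 13 to day 15, 14 of 24 were higher in control gilts and 17 of 24 in estrogen gilts, and 13 and 15 of 24 with the 3 arrays left out. Their median day differences were 0.17 and 0.12, beside -0.02 and 0.02 over all tested probe sets, and 0.045 and 0.083 with the 3 arrays left out. Estrogen minus control was above 0 for 8 of 24 at day 13 and 10 of 24 at day 15, with medians of -0.08 and -0.07 beside -0.02 and 0.03. Leaving the 3 arrays out gave 6 and 12 of 24, with medians of -0.16 and 0.055. At an unadjusted p under 0.05 there were 2 of 24 for the day in estrogen gilts, 1 of 24 for the day averaged over treatments, 2 of 24 for the change in the estrogen difference and 0 of 24 in the other comparisons. Over all tested probe sets the shares in those 3 comparisons were 8.61%, 8.56% and 3.55%.

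OXT, the gene of oxytocin itself, varied more between gilts than any other pathway gene, over 7.08 log2 units. On the control arrays of day 13 it gave 5.71, 11.95, 11.16 and 11.61, and on those of day 15 it gave 9.15, 10.89 and 9.72. In estrogen gilts it gave 4.88, 8.66, 6.65 and 11.06 at day 13 and 11.85, 7.31 and 5.08 at day 15. Of the control arrays 6 of 7 lay between 9.15 and 11.95, and of the estrogen arrays 5 of 7 lay between 4.88 and 8.66. Within each estrogen group the values were spread over most of the range.

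The mean OXT difference, estrogen minus control, was -2.30 ± 1.63 (SE) at day 13 and -1.84 ± 1.88 (SE) at day 15. Averaged over the days it was -2.07 ± 1.24 (SE), with an unadjusted limma p of 0.119 (adjusted p = 1.000), and -2.66 with these 3 arrays left out. At day 13 it was -3.76 without control day 13 replicate 1. The spread within groups was of the same order as these differences, and none passed.

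Among 6 tested genes of oxytocin receptor signalling, PRKCB, a calcium-dependent protein kinase C, had the lowest p in 4 of 7 comparisons. Its values in estrogen gilts were 7.25, 7.38, 6.97 and 7.38 at day 13 and 8.04, 7.78 and 8.96 at day 15, with no overlap. Non-overlap upwards was seen for 7.96% of all tested probe sets in this comparison. The PRKCB day difference was 1.02 ± 0.35 (SE) in estrogen gilts, with an unadjusted limma p of 0.0109 and an adjusted p of 0.441. In control gilts it was -0.33 ± 0.35 (SE). With the 3 arrays left out these were 1.26 and 0.25, and with the RNA integrity covariate 0.61 and -0.16. The change in the estrogen difference was 1.35 ± 0.49 (SE), with an unadjusted limma p of 0.0155 and an adjusted p of 0.990; with the 3 arrays left out it was 1.00, and with the RNA integrity covariate 0.77. PRKCB is also expressed by lymphocytes. Of the lymphocyte markers, 7 of 8 had a probe set and 2 of those were dim on average. The log2 of the summed signal of these markers was 8.51 to 9.23 in estrogen gilts at day 13 and 9.59 to 10.68 at day 15. Their part in the PRKCB values was not tested.

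RGS2, a regulator that quenches signalling through Gq, the G protein of the oxytocin receptor, was low on 2 arrays. It gave 9.62 on control day 13 replicate 1 and 9.01 on estrogen day 15 replicate 2, both arrays that stand apart, and 11.73 to 13.53 on the other 12. Its day difference in estrogen gilts was -1.67 ± 0.83 (SE) and -0.72 with the 3 arrays left out, and its 2 other probe sets also had differences below 0. MAPK3, a kinase downstream of the receptor, differed by 0.34 ± 0.24 (SE) between the days in control gilts and by 0.24 in estrogen gilts. The MAPK3 value in estrogen gilts was 0.60 with the 3 arrays left out, and with the RNA integrity covariate -0.13.

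Of 21 listed genes of prostaglandin synthesis other than the members, 10 had a probe set and 4 were bright enough to test. Of the dim ones, PLA2G1B, AKR1C1 and PRXL2B had lower means at day 15 under both treatments, TBXAS1 and CBR3 higher ones. CBR1 was lower in control gilts and higher in estrogen gilts. All 4 tested genes had higher means at day 15 than at day 13 under both treatments, and 0 of 4 passed. Over all tested probe sets 47.6% were higher in control gilts and 52.3% in estrogen gilts. The median day difference of the 4 tested genes was 0.43 in control gilts and 0.20 in estrogen gilts. With the 3 arrays left out, 4 of 4 were higher in control gilts, with a median of 0.23, and 2 of 4 in estrogen gilts, with a median of 0.0090. PTGES, the inducible prostaglandin E synthase that works together with cyclooxygenase 2, gave 8.40, 8.20, 9.50 and 8.30 in estrogen gilts at day 13 and 10.35, 9.51 and 10.00 at day 15. The days did not overlap, by the small margin between replicate 3 of day 13 and replicate 2 of day 15. In this comparison 7.96% of all tested probe sets had day 15 arrays all above the day 13 arrays.

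The PTGES difference in estrogen gilts was 1.35 ± 0.44 (SE), with an unadjusted limma p of 0.0079 and an adjusted p of 0.408. It was 1.58 with the 3 arrays left out, and with the RNA integrity covariate 1.01. In control gilts PTGES gave 9.98, 8.12, 9.07 and 8.63 at day 13 and 9.45, 8.42 and 9.58 at day 15, a difference of 0.20 ± 0.44 (SE) with overlap, and 0.33 with the 3 arrays left out. The change in the estrogen difference was 1.15 ± 0.62 (SE), with an unadjusted limma p of 0.0822, and 0.66 with the RNA integrity covariate. PTGS1, the constitutive cyclooxygenase, differed between the days by 0.47 ± 0.30 (SE) in control gilts and 0.02 in estrogen gilts. PTGDS, a prostaglandin D synthase, differed by 0.41 ± 0.24 (SE) and 0.05. PTGES3, a cochaperone with prostaglandin E synthase activity, differed by 0.45 and 0.35 ± 0.35 (SE). With the 3 arrays left out, PTGS1 and PTGES3 had day differences of 0.14 and 0.12 in control gilts and -0.15 and -0.04 in estrogen gilts, and PTGDS had 0.74 in control gilts.

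PTGFR, the receptor of prostaglandin F, was one of 3 tested genes of prostaglandin reception. It gave 8.82, 9.55, 8.77 and 8.12 in control gilts at day 13 and 9.12, 9.21 and 9.12 at day 15. In estrogen gilts it gave 9.21, 10.26, 9.04 and 8.42 at day 13 and 9.33, 9.90 and 9.71 at day 15, all 3 above every control array of that day. The comparison at day 15 had 4.12% of tested probe sets with estrogen arrays all above the control arrays. The estrogen minus control difference was 0.42 ± 0.35 (SE) at day 13 and 0.50 ± 0.40 (SE) at day 15. Averaged over the days it was 0.46 ± 0.27 (SE), with an unadjusted limma p of 0.105 and an adjusted p of 1.000. PPARD, a nuclear receptor that prostacyclin can activate, differed by 0.25 ± 0.25 (SE) between the treatments at day 13 and by 0.13 ± 0.27 (SE) between the days in control gilts. The PPARD value was 0.073 for the treatments at day 15 and -0.16 with the 3 arrays left out, and with them left out the day difference in control gilts was 0.38. Another PPARD probe set had differences below 0 for the treatments at day 13 and for the days in control gilts. PTGFRN, a negative regulator of the prostaglandin F receptor, differed between the days by 0.24 ± 0.57 (SE) in estrogen gilts, and by -0.12 with the 3 arrays left out. PTGER3, a prostaglandin E receptor, was too dim to test, and the other prostaglandin E receptors were not analysed here.

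**Figure D5:**
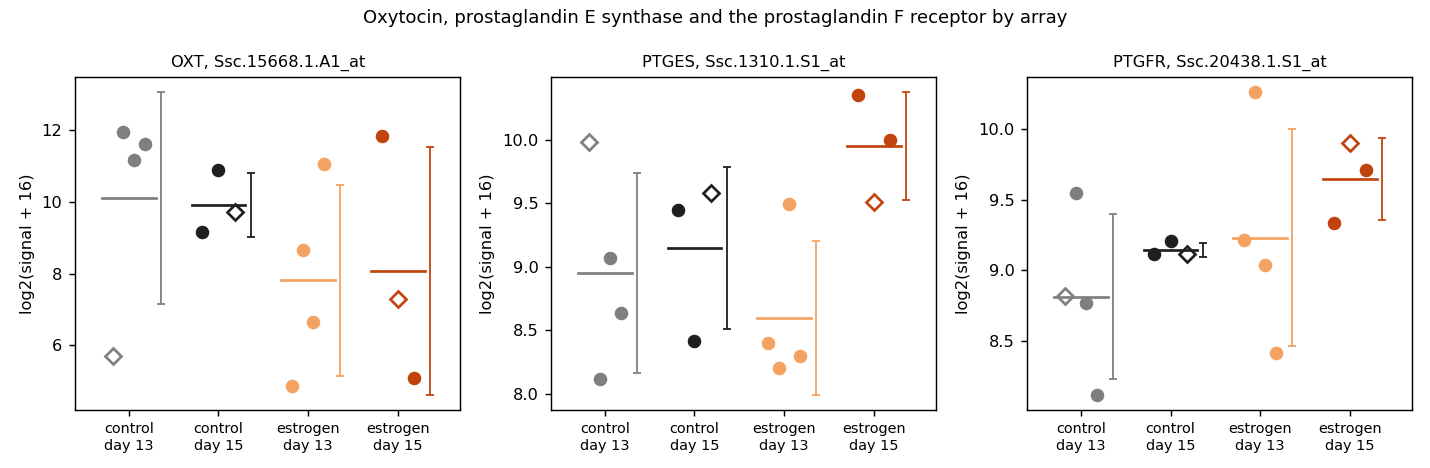
Log2(signal + 16) of OXT, PTGES and PTGFR on each of the 14 arrays, by treatment and day, each on its own scale; circles are arrays, open diamonds the 3 arrays that stand apart, horizontal lines group means and vertical bars 1 SD. OXT spans 4.88 to 11.95, and PTGES in estrogen gilts lies at 8.20 to 9.50 at day 13 and 9.51 to 10.35 at day 15.

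The enzymes that break prostaglandins down were represented by the reductases PTGR1, PTGR2 and PTGR3, and 0 of 3 passed. Between the days in control gilts PTGR3 differed by -0.31 ± 0.17 (SE) and PTGR2 by 0.38 ± 0.30 (SE). In estrogen gilts PTGR1 differed by -0.57 ± 0.55 (SE) and PTGR2 by -0.31 ± 0.30 (SE). PTGR3 had -0.12 in control gilts and PTGR2 -0.15 in estrogen gilts when the 3 arrays were left out. At day 13 PTGR2 was 0.50 ± 0.28 (SE) higher in estrogen gilts, with an unadjusted limma p of 0.0906 and an adjusted p of 1.000.

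Of 8 tested inducers of PTGS2, 0 passed, and 7 of 8 had an estrogen minus control difference below 0 at day 13, with a median of -0.34 beside -0.02 over all tested probe sets. At day 15 it was 3 of 8, with a median of 0.12 beside 0.03. Without those 3 arrays it was 8 of 8 with a median of -0.47 at day 13, and 3 of 8 with a median of 0.43 at day 15. JUN and FOS, which form the transcription factor AP-1, differed by -0.50 ± 0.29 (SE) and -0.96 ± 0.57 (SE) at day 13. For JUN the change in the estrogen difference was 0.97 ± 0.44 (SE), with an unadjusted limma p of 0.0451 and an adjusted p of 0.990. For FOS it was 1.40 ± 0.87 (SE).

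Control day 15 replicate 3, the array with the highest PTGS2, also had the highest LIF and IL1A. LIF, a cytokine of implantation, gave 11.71 there and 6.73 to 8.92 on the other 13 arrays. IL1A, a cytokine that can induce cyclooxygenase 2, gave 9.87 there and 7.03 to 8.98 on the others. The estrogen minus control difference of LIF at day 15 was -1.38 ± 0.85 (SE), and -0.26 with the 3 arrays left out. IL1B, which can also induce cyclooxygenase 2, differed between the days by 0.26 in control gilts and by 0.41 ± 0.34 (SE) in estrogen gilts. The control value of IL1B was 0.077 with the 3 arrays left out.

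The genes whose levels followed each member most closely were sought among 5784 named genes by Pearson correlation over the 14 arrays. For OXTR these were PDSS1 (0.91), DCTN3 (0.86), EXT1 (0.85), ATP5G3 (0.84) and NSDHL (0.82). Over the 11 arrays that do not stand apart the same genes had 0.60 to 0.84 with OXTR. PDSS1 makes the side chain of coenzyme Q, DCTN3 is a dynactin subunit, EXT1 builds heparan sulfate, ATP5G3 is an ATP synthase subunit and NSDHL an enzyme of sterol synthesis.

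For PTGS2 the closest were PRR13 (0.92), PPP1CA (0.86), DNTTIP2 (0.85), MSMO1 (0.82) and MBD2 (0.82), with 0.47 to 0.79 over the 11 arrays. PPP1CA is a catalytic subunit of a major protein phosphatase, MSMO1 a sterol synthesis enzyme and MBD2 a methyl-CpG binding protein. For the steady AKR1CL1 probe set they were FANCG (0.88), FUCA2 (0.82), PARP10 (0.82), TNFSF4 (0.80) and ORM1 (0.80), with 0.62 to 0.85 over the 11 arrays. These correlations are descriptions, since all genes share the same arrays and only the highest are shown.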

How the data were processed

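The authors deposited 1 signal intensity per probe set and array on a linear scale; the software is not given in the sources used here. Every array had the same 2% trimmed mean of 500.1, so the deposited intensities had been scaled to one another; median signals were 177 to 217. Precision is limited by the number of arrays. Of 24123 probe sets, 188 controls were left out, and the remaining intensities were analysed as log2(signal + 16). The dimmest 30% by mean were left out, leaving 16754. All 4 groups entered 1 fit in limma 3.58.1 (R 4.3.3; lmFit and eBayes with a trend), with Benjamini-Hochberg adjustment over these and a threshold of 0.05. Exact permutation tests used Python 3.11.15 with numpy 2.4.6. Fold changes are on the log2(signal + 16) scale, which understates those of dim genes. The method was tested on simulated data.

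Symbols came from the platform annotation, which can be old, and 9961 of 10069 named probe sets matched RefSeq (Sscrofa11.1) by gene identifier. Pathway and similarity genes were represented by their brightest probe set. Named were all member probe sets, in each pathway list the 2 genes of lowest p per comparison, and the 5 most correlated genes per member. Further values of the genes so named, and IL1A and LIF on single arrays, were chosen after they were seen. Members and lists were chosen with earlier results of these data known. Arrays stand apart where their median correlation with the others is under the median of all arrays by over 3 median absolute deviations.

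The replicate numbers were checked for pairing from correlations of deviations from group means. At day 13 the 4 same-numbered estrogen and control pairs had 0.132 to 0.283 and the 12 other pairs -0.259 to 0.100, so these numbers were treated as pairs, from the values alone. In the other comparisons same-numbered pairs ran from -0.385 to 0.242. Alternatives were other filters, normalizations, pseudocounts and fits, array weights, the replicate number as a block, an RNA quality covariate, and arrays left out.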

Additional observations from a re-analysis of the deposited data

Results flagged for a closer look

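The highest and lowest arrays in the groups of 4 were set against Dixon's critical value. Of the 10 groups of the 5 member probe sets, 2 had an array beyond it, where chance gives about 1 in 20. OXT, PTGES, PTGFR, PRKCB and LIF were picked after their values had been seen, so their number of such arrays is not set against chance. For the steady AKR1CL1 probe set, control day 13 replicate 2 lay far below the other control arrays, at 7.34 against 8.31 to 8.34, and estrogen day 13 replicate 4 far above the other estrogen arrays, at 8.47 against 7.79 to 7.90. For OXT, control day 13 replicate 1 was low at 5.71, against 11.16 to 11.95 on the other control arrays of that day. For PRKCB the same array was high at 8.29, against 7.64 to 7.70. For PTGES, estrogen day 13 replicate 3 was high at 9.50, against 8.20 to 8.40. Control day 13 replicate 1 is one of the arrays that stand apart, and the other arrays named here are not. OXTR, PTGS2, PTGFR and LIF had no such array.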

How the results depend on the processing

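The 4 tested member probe sets in 7 comparisons gave 28 results, recomputed under 27 alternatives. Of 737 values, 669 kept their direction and 68 had the other sign, and 0 passed the adjusted threshold, with a lowest adjusted limma p of 0.139. The sign changed at least once for 18 results, all with differences of at most 0.96 in size with all arrays and the chosen settings, and for the other 10 it did not. The day differences of OXTR and PTGS2 in control gilts and averaged over treatments, the PTGS2 day difference in estrogen gilts and the change in the OXTR estrogen difference were among those 10. The last of these came to -0.21 at its smallest size over the alternatives. With the dimmest 50% of probe sets left out, OXTR was not tested. Dim signal limits OXTR and the dim AKR1CL1 probe set, with 4 and 12 of 14 arrays under the dim level. The cause of the sign changes was not tested, beyond what the arrays left out show.

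Without the 3 arrays that stand apart, OXTR gave 0.26 (estrogen averaged over days) and 0.070 (day in estrogen gilts), and PTGS2 gave 0.23 (estrogen at day 15) and 0.60 (the change in the estrogen difference). The variable AKR1CL1 probe set gave -0.11 (estrogen at day 15) and 0.10 (day averaged over treatments). The steady AKR1CL1 probe set gave 0.0072 (estrogen at day 13), -0.032 (estrogen at day 15), -0.012 (estrogen averaged over days), 0.054 (day in control gilts), 0.035 (day averaged over treatments) and -0.039 (the change in the estrogen difference).

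With the RNA quality covariate, OXTR gave 0.039 (estrogen averaged over days) and 0.067 (day in estrogen gilts), PTGS2 gave 0.021 (estrogen at day 15) and 0.21 (the change in the estrogen difference), the variable AKR1CL1 probe set gave -0.55 (estrogen at day 15) and the steady one gave -0.049 (day in estrogen gilts). With this covariate and without the 3 arrays, estrogen day 15 held only replicates 1 and 3, whose RNA quality scores lay above all others. That group and the score can then hardly be told apart. In this fit OXTR gave 0.36 (estrogen at day 15), 0.47 (estrogen averaged over days) and 0.64 (day in estrogen gilts). PTGS2 then gave 1.18 (estrogen at day 15), 0.32 (estrogen averaged over days) and 1.71 (the change in the estrogen difference), and the variable AKR1CL1 probe set gave 0.24 (day in estrogen gilts) and 0.45 (day averaged over treatments). The steady AKR1CL1 probe set gave 0.019 (estrogen at day 13), -0.097 (estrogen at day 15), -0.039 (estrogen averaged over days), 0.056 (day in control gilts), -0.059 (day in estrogen gilts) and -0.12 (the change in the estrogen difference).

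With array weights, OXTR gave 0.21 (estrogen averaged over days), PTGS2 0.013 (estrogen at day 15) and 0.34 (the change in the estrogen difference), the variable AKR1CL1 probe set -0.13 (estrogen at day 15) and 0.082 (day averaged over treatments), and the steady one -0.0056 (estrogen averaged over days). With a pseudocount of 1, OXTR gave 0.013 (estrogen averaged over days) and the variable AKR1CL1 probe set 0.011 (day averaged over treatments). With the replicate number as a block, the OXTR day difference was 0.086 in estrogen gilts and 1.30 in control gilts, and no member call changed. The block was shared by the arrays of both days, although pairing was seen only at day 13. It therefore does not test the pairs of day 13 alone.

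With each array left out in turn, OXTR ran from -0.14 to 0.17 (estrogen averaged over days) and from -0.23 to 0.092 (day in estrogen gilts). PTGS2 ran from -0.37 to 0.14 (estrogen at day 13), -1.04 to 0.19 (estrogen at day 15), -0.56 to 0.059 (estrogen averaged over days) and -0.97 to 0.26 (the change in the estrogen difference). The variable AKR1CL1 probe set ran from -0.60 to 0.73 (estrogen at day 15), -0.14 to 1.52 (day in control gilts) and -0.55 to 0.28 (day averaged over treatments). The steady AKR1CL1 probe set ran from -0.32 to 0.016 (estrogen at day 13), -0.030 to 0.21 (estrogen averaged over days), -0.013 to 0.21 (day in estrogen gilts) and -0.25 to 0.017 (day averaged over treatments).

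Over all probe sets, limma called 1 for the day averaged over treatments, but 119 with array weights, 162 without the 3 arrays, 9 with the RNA quality covariate, 4 with both, 0 with the replicate block and 0 to 101 with 1 array left out (101 without control day 13 replicate 1). For the day in estrogen gilts it called 0, but 3 with no filter, 99 with only the groups compared, 168 with array weights, 224 without the 3 arrays and up to 44 with 1 array left out. Without control day 15 replicate 1 it called 4 for estrogen averaged over days and 1 for the day in control gilts, where all arrays gave 0.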
